A study of Homo sapiens with 12 samples.

Results

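The OAS family of double-stranded RNA sensors was followed in 769-P and ACHN cells after knockdown of NUF2. The members were the 4 genes OAS1, OAS2, OAS3 and OASL, chosen by name from 58302 genes listed, 36305 of them detected. Both are human kidney carcinoma cell lines, and ACHN cells were grown in Eagle's MEM while 769-P cells were grown in RPMI-1640, so line and medium cannot be told apart. Each line was transfected for 48 h with siNUF2, a mix of siRNA duplexes against the kinetochore gene NUF2, or with the negative control siRNA, siControl. There were 3 replicate libraries in each of the 4 groups, 12 in all, and cells that had received no siRNA were not analysed here. All libraries therefore come from cells that had received a synthetic double-stranded RNA with a lipid carrier.

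OAS proteins bind double-stranded RNA in the cytosol. OAS1, OAS2 and OAS3 then join ATP into short 2′-5′-linked oligoadenylates (2-5A), a second messenger that sets off the decay of cellular and viral RNA. They differ in the number of copies of the basic OAS unit, from a single one in OAS1 to the longest array in OAS3. OASL also binds RNA of this kind and carries ubiquitin-like repeats, but it does not make 2-5A. It assists signalling by the RNA sensor RIG-I. Transcription of all 4 genes is induced by type I and type III interferon, through factors that include STAT2 and IRF9.

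OAS1 (ENSG00000089127), OAS3 (ENSG00000111331) and OAS2 (ENSG00000111335) lie one after the other on chromosome 12 of GRCh38, forward strand. In GENCODE release 29, OAS1 runs from 112906777 to 112933222, OAS3 from 112938352 to 112973249 and OAS2 from 112978395 to 113011723. OASL (ENSG00000135114) lies on the reverse strand of the same chromosome, from 121019111 to 121039242. The values of all 4 genes count reads in exons, which together span 4947 bases in OAS1, 6264 in OAS2, 8251 in OAS3 and 3517 in OASL. The antisense gene AC004551.1 overlaps OAS1, OAS3 and OAS2, its highest FPKM (fragments scaled to exon length and library size) was 0.363, and the strand setting of the count is not given in the sources used here.

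The promoters of OAS1 and OAS3 are shown because interferon acts on this family at the start of transcription. Each is the reference sequence of RefSeq on GRCh38.p14, forward strand, 300 bases from 250 before the start, at chr12:112906712-112907011 for OAS1 and chr12:112938224-112938523 for OAS3. Capitals mark matches, on either strand, to AANNGAAA, the core bound by interferon regulatory factors, and neighbouring matches may overlap.
OAS1: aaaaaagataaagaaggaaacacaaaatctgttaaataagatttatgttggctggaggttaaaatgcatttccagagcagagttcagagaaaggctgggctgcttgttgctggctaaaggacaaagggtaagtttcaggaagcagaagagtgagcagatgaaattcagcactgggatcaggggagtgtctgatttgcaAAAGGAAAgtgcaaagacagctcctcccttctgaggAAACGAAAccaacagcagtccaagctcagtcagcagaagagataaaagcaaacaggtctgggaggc
OAS3: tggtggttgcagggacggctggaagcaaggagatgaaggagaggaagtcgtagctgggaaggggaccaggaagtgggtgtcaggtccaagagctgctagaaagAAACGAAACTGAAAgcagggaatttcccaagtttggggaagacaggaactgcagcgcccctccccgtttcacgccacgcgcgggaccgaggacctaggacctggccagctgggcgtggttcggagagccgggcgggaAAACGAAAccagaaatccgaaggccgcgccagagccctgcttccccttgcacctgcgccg
With −1 as the last base before the start, the OAS1 promoter held 2 matches, AAAGGAAA from −52 to −45 and AAACGAAA from −16 to −9. The OAS3 promoter held 3, of which AAACGAAA from −147 to −140 and AACTGAAA from −141 to −134 overlap, and AAACGAAA recurs from −10 to −3. Of all 35116 promoters of this length in the table, 22.8% held at least 1 match. A match is a description of the letters and not a measured site. The start used for these promoters lies, in both genes, after the first base of the GENCODE gene given above, so a match numbered before it can lie within that gene.

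Recovered reads ran from 26368027 to 34582313 per library. NUF2, the targeted gene, was at 17.8 to 19.4 FPKM in the siControl and 3.01 to 4.17 FPKM in the siNUF2 libraries of 769-P cells, a log2 fold change of −2.29 ± 0.128 (SE, n = 3 against 3; limma adjusted p = 0.00135). In ACHN cells these ranges were 11.6 to 15.01 FPKM and 2.16 to 5.14 FPKM, a log2 fold change of −1.87 ± 0.316 (limma adjusted p = 0.222, and 0.0131 with same-numbered libraries paired). Of 8 renal epithelial markers, 7 reached 0.5 FPKM in a library (PAX8, PAX2, KRT8, KRT18, VIM, EPCAM and CDH2), whereas CA9 did not, and the summed level of the list was 416 to 500 FPKM for 769-P and 484 to 727 FPKM for ACHN libraries. None of the 5 leukocyte markers reached 0.5 FPKM, with a summed level of 0.0848 to 0.546 FPKM, CD3E at 0 in all libraries and PTPRC no higher than a group mean of 0.0112 FPKM. The 5 fibroblast and endothelial markers had sums of 0.11 to 0.262 FPKM for 769-P and 1.45 to 6.22 FPKM for ACHN libraries, where COL1A1 and PDGFRB made up most of it.

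In 769-P cells, all 4 OAS genes were higher in each siNUF2 library than in each siControl library. Averaged over replicates, OAS3 was 2.82-fold, OAS1 3.62-fold, OASL 6.28-fold and OAS2 9.86-fold higher, the 2 genes of low level having the larger ratios. In bulk RNA, a rise in all cells and a larger one in some cells cannot be told apart. Such a separation was seen for 16% of the 14162 genes tested in this line, a share that is not read against OAS2 and OASL, which needed their siNUF2 libraries to pass the filter on low values (0.5 FPKM in at least 3 libraries). The exact permutation test gave p = 0.1 for each member (two-sided), and no lower value can be reached with groups of 3.

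OAS1, the synthetase with a single OAS unit, was at 27.9, 29.2 and 9.78 FPKM in replicates 1, 2 and 3 of siNUF2 in 769-P cells. Those of siControl had 7.74, 6.69 and 4.04 FPKM. The lowest siNUF2 library, replicate 3, was still above the highest siControl library. The log2 fold change, on log2(FPKM + 0.1), was 1.74 ± 0.445 (SE, n = 3 against 3; limma adjusted p = 0.0535, and 0.00543 with the libraries paired by replicate number, SE 0.162).

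OAS3, the longest synthetase and the member of the highest level, was at 47.2, 51.0 and 20.7 FPKM with siNUF2 in 769-P cells. The siControl libraries had 17.96, 14.4 and 9.79 FPKM. The siNUF2 library of replicate 3 was close to the siControl library of replicate 1, and the 2 groups did not overlap. Its log2 fold change was 1.43 ± 0.373 (SE, n = 3 against 3; limma adjusted p = 0.056, and 0.00559 when paired, SE 0.138).

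OAS2, the synthetase with an intermediate number of units, was at 3.11, 3.21 and 0.540 FPKM with siNUF2 in 769-P cells. The siControl libraries had 0.304, 0.284 and 0.108 FPKM, which rests on 56, 57 and 22 recovered reads. The gene was thus scarcely expressed in control 769-P cells, and passed the filter on low values only through its siNUF2 libraries. Its log2 fold change was 2.58 ± 0.657 (SE, n = 3 against 3; limma adjusted p = 0.0532, and 0.00885 when paired, SE 0.342).

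OASL, the member without synthetase activity, was at 2.28, 3.64 and 0.767 FPKM with siNUF2 in 769-P cells. With siControl it was at 0.367, 0.505 and 0.193 FPKM, from 38, 57 and 22 recovered reads. Replicate 3 was the lowest library of both groups. With 1 siControl library at 0.5 FPKM, OASL also needed its siNUF2 libraries to pass the filter. The log2 fold change was 2.19 ± 0.544 (SE, n = 3 against 3; limma adjusted p = 0.05002, and 0.00671 when paired, SE 0.244).

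**Figure D1:**
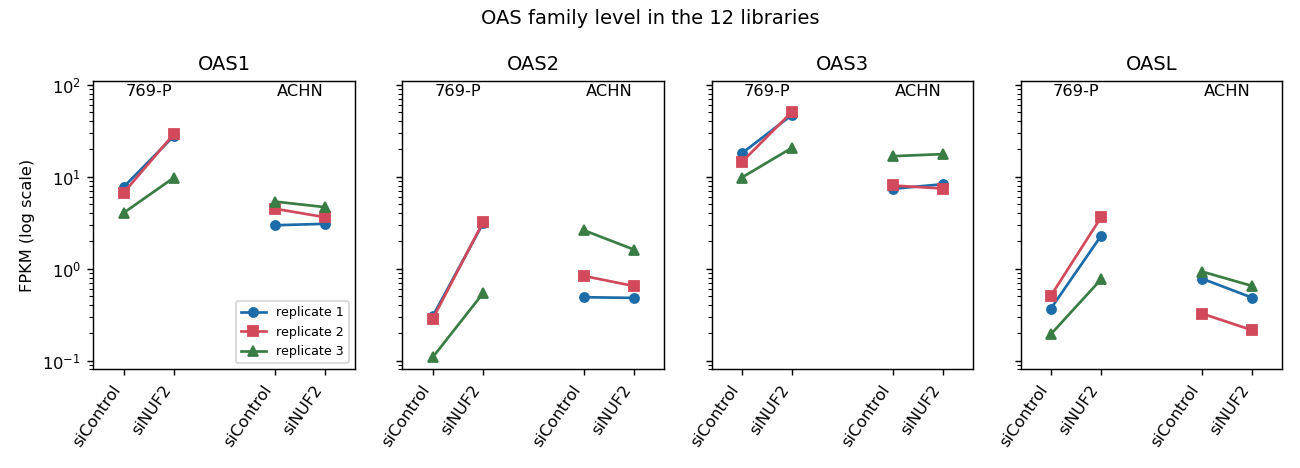
FPKM of each OAS gene on a log axis in the 12 libraries, with siControl and siNUF2 libraries of the same replicate number joined by a line and marked by colour and shape. In 769-P cells all lines go up and replicate 3 lies lowest. In ACHN cells the pairs lie between 0.614 and 1.12 of their control.

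Thus 0 of 4 members passed an adjusted p of 0.05 in 769-P cells when the libraries were not paired, against 9.86% of all genes tested. All 4 nevertheless had an unadjusted limma p below 0.05. Unpaired limma-voom on recovered reads called OAS1 and OAS3, among 1757 of 13307 genes called. With the replicate number as a block, OAS1 and OAS3 were upregulated, in a fit that called 13.6% of genes higher. OAS2 and OASL were called higher as well, but since both passed the filter through the group in which they were high, their calls are given as values and not counted against that share. Without the siNUF2 library of replicate 3, the unpaired fit called 389 of 13897 genes. OASL again needed its siNUF2 libraries to pass the filter there, and OAS2 no longer passed it. This fit called OAS1, OAS3 and OASL, with limma adjusted p of 0.0196, 0.024 and 0.0245. It was the only 1 of 6 unpaired fits without 1 library that called OAS1, OAS3 or OASL. In the others their adjusted p reached 0.155, 0.161 and 0.146. OAS2 was called in none of the 3 such fits that tested it. Without both libraries of replicate 2, OAS1 and OAS3 were the 2 members still tested in the paired fit, and both remained called, with adjusted p of 0.0184 and 0.0159. That fit called 1422 of 13546 genes.

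The spread between replicates was itself shared by the family. Summed over the 4 members, the level in 769-P cells was 80.5, 87.1 and 31.8 FPKM in replicates 1, 2 and 3 of siNUF2 and 26.4, 21.9 and 14.1 FPKM in those of siControl. Replicate 3 was the lowest of both groups in 769-P cells. In ACHN cells the same sum was 12.3, 11.9 and 24.6 FPKM with siNUF2 and 11.6, 13.7 and 25.6 FPKM with siControl, where replicate 3 was the highest of both groups. Within pairs in 769-P cells, the members were 2.63-fold to 10.3-fold higher in replicate 1, 3.53-fold to 11.3-fold in replicate 2 and 2.11-fold to 4.98-fold in replicate 3. What a replicate number stands for is not given in the sources used here, and its part in the levels was not tested.

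In ACHN cells, no member passed the test between siNUF2 and siControl, with or without pairing. OAS1 was at 3.07, 3.62 and 4.67 FPKM with siNUF2 and at 2.96, 4.49 and 5.37 FPKM with siControl, and the groups overlapped. OAS3 was at 8.30, 7.43 and 17.6 FPKM with siNUF2 and at 7.39, 8.03 and 16.7 FPKM with siControl. In both groups of OAS3, replicate 3 was above both other libraries, and the pairs lay between 0.925 and 1.12 of their control.

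OAS2 in ACHN cells was at 0.480, 0.645 and 1.61 FPKM with siNUF2 and at 0.488, 0.833 and 2.62 FPKM with siControl. OASL was at 0.482, 0.213 and 0.647 FPKM with siNUF2 and at 0.779, 0.325 and 0.930 FPKM with siControl, lower with siNUF2 in each of the 3 pairs, at 0.619, 0.658 and 0.697 of its control. OAS2 was also lower with siNUF2 in each pair, at 0.984, 0.775 and 0.614 of its control. For both genes the groups overlapped.

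The log2 fold changes in ACHN cells were −0.13 ± 0.255 for OAS1, −0.32 ± 0.665 for OAS2, 0.06 ± 0.44 for OAS3 and −0.48 ± 0.491 for OASL (SE, n = 3 against 3; limma adjusted p of 0.934 to 0.997). With the libraries paired, the 95% intervals of the log2 fold change were −0.36 to 0.10 for OAS1, −0.77 to 0.13 for OAS2, −0.13 to 0.25 for OAS3 and −1.03 to 0.07 for OASL, with adjusted p of 0.196 to 0.609. Unpaired, limma called 0 of 15120 genes in ACHN cells (0%), with 1244 at an unadjusted p below 0.05 and none called by limma-voom. Paired, 12.1% of genes were called, and none of the members, none of which had an unadjusted p below 0.05. On recovered reads, the paired limma-voom fit called OAS2 and OASL lower, with log2 fold changes of −0.48 and −0.58 and adjusted p of 0.0238 and 0.0426. That fit called 3291 of 14211 genes. Leaving out a library turned the sign of 3 of these small values: OAS1 was at 0.05 and OAS2 at 0.30 without the siControl library of replicate 3, and OAS3 at −0.33 without the siNUF2 library of replicate 3, −0.15 without the siControl library of replicate 1 and −0.09 without that of replicate 2.

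Whether the response differed between the lines was tested by an interaction term fitted to all 12 libraries. The change in ACHN cells minus the change in 769-P cells was −1.88 for OAS1, −2.92 for OAS2, −1.38 for OAS3 and −2.68 for OASL on the log2 scale. With the libraries paired within each line, the standard errors were 0.22, 0.423, 0.184 and 0.291, and the limma adjusted p were 0.033, 0.04, 0.0368 and 0.0319. The change of all 4 members was thus lower in ACHN than in 769-P cells in this fit, in which 0.869% of 16568 genes were called in that direction. Unpaired, limma called none of the genes (0%), with 775 genes and 3 of the members (OAS1, OAS2 and OASL) at an unadjusted p below 0.05, and the members' adjusted p were 0.91 to 0.999. The paired call needed all 3 pairs: with both libraries of 1 replicate number left out in each line, the differences were −3.23 to −1.11 and no member was called, with adjusted p of 0.0589 to 0.226. Of all genes, 1, 0 and 0 were then called without replicate 1, 2 and 3, against 231 with all pairs.

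**Figure D2:**
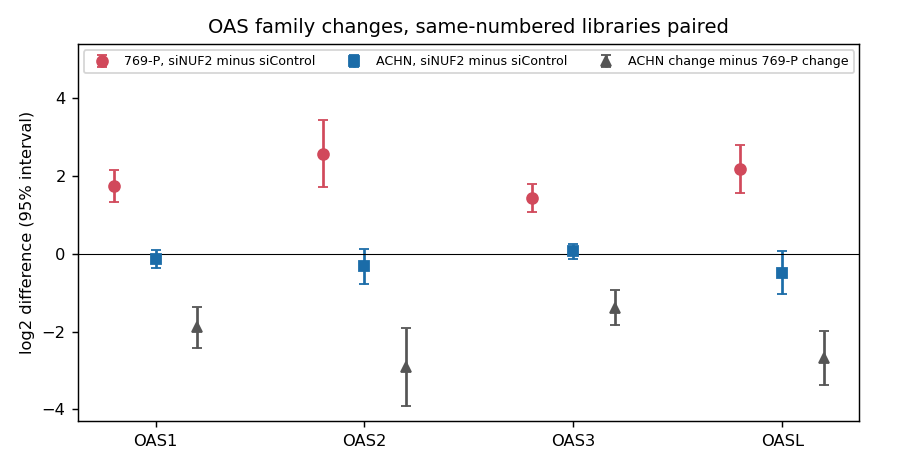
Log2 difference of each OAS gene with its 95% interval from the paired limma fits, for siNUF2 minus siControl in 769-P cells (circles), the same in ACHN cells (squares), and the ACHN change minus the 769-P change (triangles). The 769-P intervals lie above 0, from 1.08 at the lowest, all 4 ACHN intervals include 0, and the intervals of the difference lie below 0.

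The order of levels within the family was much the same in both lines. OAS3 had a higher FPKM, a level per length, than OAS1 in 12 of 12 libraries, and OAS1 was above OAS2 and above OASL in 12 of 12. OAS2 and OASL were the exception, OAS2 being the higher one in 1 of 6 libraries of 769-P and in 4 of 6 of ACHN cells. In siControl libraries, OAS1 was at 41.3 to 46.4% of OAS3 for 769-P and at 32.1 to 55.9% for ACHN cells. OAS2 was at 1.11 to 1.97% of OAS3 in 769-P siControl libraries and at 2.61 to 6.59% with siNUF2, while it was at 6.61 to 15.6% in ACHN siControl libraries.

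None of the members passed the test between the lines under siControl, in a fit of the 6 siControl libraries that called 61.6% of 15376 genes. ACHN minus 769-P was −0.55 ± 0.3 for OAS1 (SE, n = 3 against 3; limma adjusted p = 0.155), −0.49 ± 0.353 for OAS3 (adjusted p = 0.269) and 0.71 ± 0.42 for OASL (adjusted p = 0.185), and OAS2 did not pass the filter. In the fit of all 12 libraries, where OAS2 was tested, it was 1.81 higher in ACHN cells on the log2 scale (limma adjusted p = 0.0484), and with no filter on low values the adjusted p was 0.0666. With 1 library left out, each of the other 3 passed the threshold in 1 fit only, of 6 for OAS1 and OAS3 and of 3 for OASL. In the remaining such fits the adjusted p reached 0.383 for OAS1, 0.561 for OAS3 and 0.465 for OASL. The fits that passed had OAS1 at −0.82 without siControl replicate 3 of 769-P cells (limma adjusted p = 0.0451), OASL at 1.09 without siControl replicate 2 of ACHN cells (0.0425) and OAS3 at −0.85 without siControl replicate 3 of ACHN cells (0.0359). OAS1 and OAS3 were lower and OASL higher in ACHN cells in these fits.

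Over the 12 libraries, after the mean of each line was removed, the members varied together, with Pearson's r between 0.878 (OAS1 and OASL) and 0.971 (OAS2 and OAS3). The libraries share their siRNA group and replicate number, so these are descriptions with n = 12. Among 10554 protein-coding genes tested in both lines, the genes most like OAS1 were HERC6 (r = 0.99), TRIM14 (0.99) and ISG15 (0.983), the last a ubiquitin-like modifier. OAS2 was most like IFI35 (0.982), PARP10 (0.978) and IFIT5 (0.977). OAS3 was most like the helicase gene DDX60 (0.973), OAS2 (0.971) and IFI35 (0.963), and OASL was most like HELZ2 (0.986), DHX58 (0.976) and C19orf66 (0.969).

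Of the genes listed for the turnover of 2-5A, none of the 3 passed the test in either line. PDE12, a phosphodiesterase that degrades 2-5A, was at 2.75 ± 0.11 FPKM with siNUF2 and 2.70 ± 0.169 FPKM with siControl in 769-P cells (SD, n = 3). ABCE1, a ribosome recycling factor, was at 23.2 ± 2.25 FPKM and 24.2 ± 1.64 FPKM. With the anchoring protein gene AKAP7, they had log2 fold changes between −0.13 and 0.03 for 769-P and between −0.12 and 0.17 for ACHN cells.

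Among the other sensors of double-stranded RNA, 10 of 11 were tested in 769-P cells. Unpaired, 2 were higher and 1 was lower with siNUF2, and paired, 5 were higher and 2 lower. Over all genes tested in this line, 9.86% were called unpaired, and paired, 1924 of 14162 were higher and 1974 lower. DHX58, a helicase related to RIG-I, rose from 2.29 ± 0.436 to 6.58 ± 2.57 FPKM, by 1.43 ± 0.295 on the log2 scale (limma adjusted p = 0.0304). DDX58, which encodes RIG-I, rose by 1.11 ± 0.248 (limma adjusted p = 0.0367). With 1 library left out, DHX58 remained called in 2 of 6 fits (adjusted p of 0.0206 to 0.0997) and DDX58 in 1 of 6 (0.0147 to 0.108). IFIH1, which encodes the sensor MDA5, had a log2 fold change of 1.01 ± 0.257 (limma adjusted p = 0.0523, and 0.0305 when paired). EIF2AK2, the kinase PKR that halts translation on binding double-stranded RNA, had one of 0.63 ± 0.208 (limma adjusted p = 0.103, and 0.0169 when paired). ADAR, which edits adenosines in double-stranded RNA, was higher when paired, by 0.47 ± 0.087 (limma adjusted p = 0.0191), and PRKRA, an activator of PKR, was lower, at −0.29 ± 0.0564 (limma adjusted p = 0.0216). In the paired fit without both libraries of replicate 1, DHX58, PKR and MAVS remained called, and without those of replicate 2, DHX58 alone.

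The adaptor MAVS, which relays the signal of RIG-I and MDA5, went the other way. It fell by 0.34 on the log2 scale in 769-P cells (limma adjusted p = 0.0355, and 0.0591 to 0.116 with any 1 library left out). In ACHN cells it had a log2 fold change of −0.33 ± 0.0975 (limma adjusted p = 0.447, and 0.0385 when paired). It was the only 1 of 10 tested sensors and adaptors called in ACHN cells, in the paired fit that called 12.1% of all genes. That call was lost without both libraries of replicate 1 or 3 (0.102 and 0.134). The median log2 fold change of the list was 0.33 in 769-P and −0.13 in ACHN cells, against −0.01 and 0.01 over all genes tested. DHX58 was the 1 gene of the list whose change differed between the lines in the paired fit (limma adjusted p = 0.0319, against 0.91 unpaired), and its call was lost without both libraries of any 1 replicate number (0.091 to 0.211).

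Of the cGAS pathway, which senses DNA rather than RNA, none of the 3 genes tested in 769-P or 2 tested in ACHN cells was called, unpaired or paired, with all libraries of the line. CGAS was at 6.49 ± 1.34 FPKM with siNUF2 and 5.74 ± 0.748 FPKM with siControl in 769-P cells (SD, n = 3), with a log2 fold change of 0.17 ± 0.165 (limma adjusted p = 0.551). The paired fit without both libraries of replicate 3 called CGAS higher in 769-P cells, among 3034 of 13560 genes called. In ACHN cells the group means of CGAS were 0.0137 FPKM or less. The adaptor STING1 stayed below the filter in both lines, with group means of 0.331 and 0.429 FPKM in 769-P and 0.0149 and 0.0422 FPKM in ACHN cells.

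Interferon transcripts were near the limit of detection. In 769-P cells, IFNB1 had 0, 4 and 1 recovered reads with siNUF2 and 0, 2 and 0 with siControl. IFNL1, a type III interferon, had 10, 6 and 4 reads with siNUF2 and 1, 1 and 0 with siControl. IFNL2 had 5, 9 and 2 against 4, 0 and 0 reads, and IFNL3 had 3, 7 and 2 against 5, 1 and 0. IFNE had 4, 4 and 4 reads against 10, 3 and 6. In ACHN cells IFNB1, IFNE, IFNL1, IFNL2 and IFNL3 had no read in any library and IFNK had 1 read in 1 library, while IFNA1 and IFNG had none in either line. None of these 8 interferon genes passed the filter, so none was tested. A read count of 0 at this depth does not show that a transcript is absent, and IFNL2 and IFNL3 are near-identical copies whose reads may have been split or dropped in counting.

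The receptors, kinases and factors of the interferon response had a median log2 fold change of −0.05 in 769-P cells, with 7 of 14 above 0. Of those 14 in 769-P cells, JAK1 alone was higher unpaired, with a log2 fold change of 0.32 ± 0.0766 (limma adjusted p = 0.0465), a call lost when any 1 of the 6 libraries was left out (0.0554 to 0.132). Paired, JAK1, IRF7 and USP18 were higher and IFNAR1, IFNGR2 and IRF1 lower. Of all 14162 genes tested in this line, 1397 were called unpaired and 3898 paired. USP18, an interferon-induced protease that removes ISG15 and restrains the receptor, had a log2 fold change of 1.89 ± 0.475 (limma adjusted p = 0.0516, and 0.00578 when paired). IRF7, an inducible factor for interferon genes, had one of 1.31 ± 0.401 (limma adjusted p = 0.0854, and 0.00665 when paired).

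The factors STAT2 and IRF9 did not pass the test in 769-P cells, paired or unpaired, in the fits of log2(FPKM + 0.1) to all 6 libraries. STAT2 had a log2 fold change of 0.37 ± 0.157 (limma adjusted p = 0.181), and IRF9, at 0.666 and 0.410 FPKM, one of 0.54 ± 0.35 (limma adjusted p = 0.369). The paired limma-voom fit on recovered reads, which called 4900 of 13307 genes, called both higher (adjusted p of 0.0059 and 0.0304). IRF9, with 1 siControl library at 0.5 FPKM, needed its siNUF2 libraries to pass the filter, so its call is given as a value. STAT2 also passed without the siNUF2 library of replicate 3 (limma adjusted p = 0.0459 unpaired), in a fit that called 389 of 13897 genes. The receptor chain IFNLR1, needed for the type III interferons, was listed at 0 in all 6 libraries of 769-P cells and had group means of 1.89 and 2.12 FPKM in ACHN cells.

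In ACHN cells none of the 15 genes of this list tested was called unpaired. In the paired fit, which called 12.1% of all genes, 2 were lower and none higher. These were STAT2, with a log2 fold change of −0.35 ± 0.0626 in the paired limma fit (adjusted p = 0.0347, against 0.86 unpaired), and IRF2, with −0.27 (adjusted p = 0.0407). The call of STAT2 was lost without both libraries of replicate 1 or 3 (0.0917 and 0.127), and that of IRF2 without those of any 1 replicate number (0.101 to 0.112). SOCS1, a feedback inhibitor of the kinases, had a log2 fold change of −0.64 ± 0.685 (limma adjusted p = 0.941), and IRF7 one of −0.47 ± 0.279 (limma adjusted p = 0.782). The change of IRF7 and USP18 was lower in ACHN than in 769-P cells in the paired test of the difference, with limma adjusted p of 0.037 and 0.0387, against 0.91 and 0.96 unpaired. Neither remained called without both libraries of any 1 replicate number (0.0589 to 0.226).

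The effectors induced by interferon had the highest median change of the lists in 769-P cells. Of 30 listed, 20 were tested, and each had a log2 fold change above 0, from 0.44 to 2.70 with a median of 1.28. Unpaired, 7 were called, all higher (IFIT1, IFI44, SAMD9, SAMD9L, PARP9, TRIM22 and GBP1), and paired, 20 were called, all higher. The 10 not tested were below the filter, and HERC5, UBE2L6, IFI27 and HERC6 had fewer than 3 siControl libraries at 0.5 FPKM and needed their siNUF2 libraries to pass it, so the 20 are not the whole list and their count is a description. In the paired fit without both libraries of replicate 1, 2 or 3, the number called was 14, 13 and 18 of 18 tested. IFI44 rose by 2.70 ± 0.428 on the log2 scale (limma adjusted p = 0.0149) and IFIT1, which binds foreign RNA ends, by 2.65 ± 0.518 (limma adjusted p = 0.0261). IFI44 remained called without any 1 library, and IFIT1 in 2 of 6 such fits (adjusted p of 0.015 to 0.0862). IFI6 had a log2 fold change of 2.64 ± 0.768 (limma adjusted p = 0.0748, and 0.0019 when paired) and IFI27 one of 2.36 ± 0.896 (limma adjusted p = 0.145, and 0.00464 when paired).

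In ACHN cells, 21 effectors were tested, with a median log2 fold change of −0.07 and a range of −0.51 to 0.21. None was called unpaired. Paired, in the fit that called 12.1% of all genes, 2 were lower. They were IFIT2 at −0.40 ± 0.0576 (SE of the paired fit; limma adjusted p = 0.0226) and IFIT3 at −0.51 ± 0.0615 (limma adjusted p = 0.0183). Without both libraries of any 1 replicate number the call of IFIT2 was lost (0.0562 to 0.0931), and without those of replicate 3 that of IFIT3 (0.0612). Of 24 effectors in the test of the difference between lines, 14 had a lower change in ACHN than in 769-P cells when paired, and none a higher one. That fit called 0.869% of all genes in that direction. Among the 14, IFI27 and CMPK2 (adjusted p of 0.0442 and 0.0459) needed their siNUF2 libraries of 769-P cells to pass the filter. The count of 14 is therefore a description and is not read against that share. Unpaired, 0 of the 24 were called. Without both libraries of replicate 1, IFI6 alone remained called, and without those of replicate 2 or 3, none did. Of the effector genes, 25 had a promoter in the reference table, and 22 of these held AANNGAAA in at least 1 promoter. The share of 22.8% given above is per promoter, so this count per gene is not set against it.

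**Figure D3:**
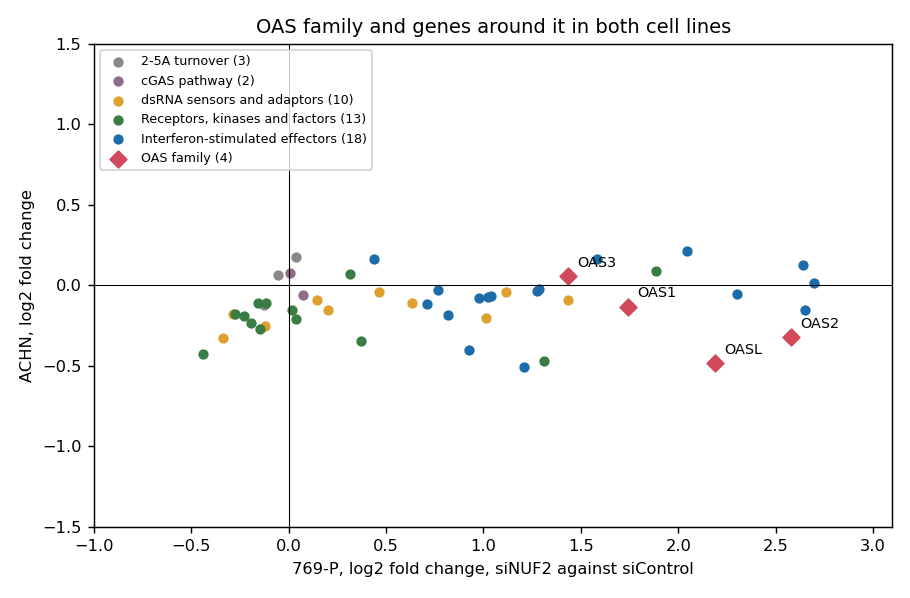
Unpaired log2 fold change with siNUF2 in 769-P cells (x axis) and ACHN cells (y axis) for the OAS genes (diamonds) and the listed genes tested in both lines, coloured by list with the number of genes in brackets. The OAS genes lie to the right among the effectors, between 1.43 and 2.58 in 769-P and between −0.48 and 0.06 in ACHN cells, while the 2-5A turnover and cGAS pathway genes lie near 0 in both.

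None of the genes reported here beside the OAS loci was called higher in 769-P cells, where the paired fit called 13.6% of all genes higher. Within 250 kb of a member, 8 such genes were tested in 769-P cells, with log2 fold changes from −1.16 to 0.45. Unpaired, TPCN1 alone was lower, an ion channel gene beyond OAS2 that starts 314 kb from OAS1, with −0.53 ± 0.0618 (limma adjusted p = 0.00721), and it remained called without any 1 library. Paired, RF00019 and RITA1 were lower as well, so 3 were lower and none higher. The same fits called 9.86% of all genes unpaired and, paired, 1974 of 14162 genes lower. With 8 neighbours, these counts are a description. In ACHN cells 13 neighbours were tested and none was called unpaired. Paired, in the fit that called 12.1% of all genes, DDX54 was higher and RASAL1 and TPCN1 lower. The antisense gene AC004551.1 had 6, 6 and 4 recovered reads with siNUF2 and 3, 0 and 0 with siControl in 769-P cells, against at least 1489 reads for OAS1, 5251 for OAS3 and 104 for OAS2 in the same siNUF2 libraries.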

How the data were processed

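The authors filtered reads with fastp and deposited 1 FPKM value per gene and library. The submitters' processing notes name HISAT2 2.0.5, featureCounts 1.5.0-p3 and hg38, and the strand setting is not given in the sources used here. Reads were recovered from the FPKM with GENCODE release 29 exon lengths: 95.2% of values above 0 were whole within 0.05 read, and reads were obtained for 95.4% of genes above 0. The labels do not say that replicates were separate cultures, so p-values measure the spread between these libraries.

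FPKM were scaled by a trimmed mean of log ratios (30% of ratios and 5% of levels trimmed), and log2(FPKM + 0.1) was fitted with limma 3.58.1 in R 4.3.3 (lmFit, eBayes with a trend) for genes at 0.5 FPKM or more in at least 3 libraries. The pseudocount understates changes of low genes. Tests were two-sided with Benjamini-Hochberg adjustment over all genes tested, called under 0.05. Each line was fitted alone, and the difference of response in all 12 libraries. Same-numbered libraries deviated together (769-P cells, r from 0.19 to 0.354; ACHN cells, r from 0.462 to 0.735), so fits with the replicate number as a block are given where they change a call. No library was a copy of another.

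Members and lists were chosen with earlier results of these data known. Each list has at most 4 genes named by size of change, with PKR, the RNA sensors, STAT2 and IRF9 and the genes behind counts of 5 or fewer, beside the 3 genes most like each member and the genes tested within 250 kb. DDX58 and C19orf66 are spelled as in the files, and CGAS and STING1 are listed there as MB21D1 and TMEM173. Of 4 members, 2 had a promoter in the table. A few genes of the lists and loci are not reported here, and counts leave them out. Python 3.11.15, NumPy 2.4.6, pandas 2.3.3 and matplotlib 3.10.9 were used, and the fits were tested on simulated data.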

Additional observations from a re-analysis of the deposited data

Results flagged for a closer look

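The change with siNUF2 differed between the cell lines for all 4 members in the paired test of the interaction. As the ACHN change minus the 769-P change, it was −1.88 for OAS1, −2.92 for OAS2, −1.38 for OAS3 and −2.68 for OASL on the log2 scale. In every one of the 3 pairs of 769-P cells all 4 members were higher with siNUF2. In ACHN cells OASL was lower in every pair, and so was OAS2, though only at 0.984 of its control in replicate 1. OAS1 and OAS3 went both ways in ACHN cells, at 0.807 to 1.04 and 0.925 to 1.12 of their control. Unpaired, or paired without both libraries of any 1 replicate number, the same differences did not pass the test. Groups of 3 libraries were too small to look for single libraries that stand apart.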

How the results depend on the processing

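In 769-P cells, 1397 genes and 0 members were called unpaired. The replicate block gave 3898 genes and 4 members, no filter 627 genes, and all 12 libraries in one fit 719 genes and 1 member (OAS1). In filtered fits of 769-P cells alone, OAS2 and OASL needed their siNUF2 libraries to pass. Counts of members that include them are descriptions. 1 member was called with median-ratio scaling, with no further scaling and with a pseudocount of 0.01 (OASL each time, adjusted p of 0.0487 to 0.0499), and 2 with limma-voom. Leaving out 1 library gave 360 to 1144 genes and 0 to 3 members. The members kept their direction in every fit that tested them, from 1.47 to 2.25 for OAS1, 1.19 to 1.85 for OAS3, 1.29 to 3.27 for OAS2 and 1.16 to 2.78 for OASL, the last 2 lowest with a pseudocount of 1. In ACHN cells, with 0 genes unpaired, the block gave 1823 genes and all 12 libraries 166. Leaving out 1 library moved the log2 fold change between −0.368 and 0.0482 for OAS1, −0.801 and 0.301 for OAS2, −0.33 and 0.429 for OAS3 and −0.869 and −0.118 for OASL. For the difference of response, also 0, the block gave 231 genes and 4 members, a pseudocount of 0.01 gave 2 genes, no filter 15, and leaving out 1 library 0 to 1. Between lines under siControl, all 12 libraries called 1 member (OAS2) and leaving out 1 library 0 to 1.

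Chosen after seeing the data, limma-voom with the block gave 4900 genes and 4 members in 769-P, 3291 genes and 2 members in ACHN cells, and 975 genes and 4 members for the difference. The 4 members in 769-P cells again include OAS2 and OASL, which needed their siNUF2 libraries to pass the filter. The block without both libraries of replicate 1, 2 or 3 gave 2326, 1422 and 3034 genes for 769-P cells. It called 3, 2 and 3 members, which were all the members that still passed the filter. For ACHN cells it gave 544, 1176 and 1 genes and 0 members, with OAS3 at −0.00464 without replicate 1. For the difference it gave 1, 0 and 0 genes and 0 members, so the 14 effectors, DHX58, IRF7 and USP18 were no longer called, save IFI6 without replicate 1. The block changed no other call of a member. Only part of the other named genes was followed through the alternatives. Of their 526 alternative values, 419 kept their direction and side of the threshold, 71 passed it, 36 no longer did and 0 reversed.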
